A study of Arabidopsis thaliana with 20 samples.

Results

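Hairpin siRNAs were compared between a G:U and a perfectly paired hairpin in plants without RNA polymerase IV. The 4 libraries, of the 20 samples in the series, were chosen by their titles: 2 come from nrpd1a mutants carrying hpEIN2[G:U] and 2 from nrpd1a mutants carrying hpEIN2[WT]. Both groups are Arabidopsis thaliana of the ecotype Columbia, sampled as whole plants 3 weeks old, and both carry the nrpd1a mutation together with a hairpin transgene against EIN2. They differ by label in the hairpin alone: the stem of hpEIN2[WT] is perfectly paired, and that of hpEIN2[G:U] holds G:U wobble pairs, in which a G faces a U. G:U libraries are numbered 2 and 18, and WT libraries 2 and 3 (library 3 bears the number 13 in the table). The promoter of the transgene, the part of EIN2 in the stem, and whether a number marks a plant, a pool or a transgenic line were not stated in the labels, so hairpin and line cannot be told apart.

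EIN2 (AT5G03280, chromosome 5) encodes a membrane protein needed for ethylene signalling. A hairpin RNA folds back on itself and is cut by Dicer-like enzymes into siRNA duplexes, each with a sense and an antisense strand, and the antisense strand can pair with the target mRNA. DCL4 makes 21-nt, DCL2 22-nt and DCL3 24-nt siRNAs. NRPD1A (AT1G63020, chromosome 1) encodes the largest subunit of polymerase IV, whose transcripts are copied into double-stranded RNA and cut by DCL3 into the 24-nt siRNAs that guide DNA methylation. A hairpin transcript is double-stranded already, so its dicing needs no polymerase IV template.

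The values are raw counts of stem reads by strand and by length, 18 to 25 nt. The G:U libraries held 65840 (library 2) and 79498 (library 18) such reads, against 34504 and 12567 in WT libraries 2 and 3. Both G:U libraries held more stem reads than either WT library. The tables give no library totals, so sequencing depth and siRNA abundance cannot be told apart in these counts, and all measures are shares or ratios within a library. The part of the number of reads in the differences below was not tested. The widest 95% Wilson interval of a strand or size share reached 1.26 percentage points to either side, for counting error only. The tables count stem reads alone, so the labels were not checked against NRPD1A or EIN2 expression. In whole-plant RNA, fewer cells of a type and less RNA per cell cannot be told apart. Plants without a hairpin, as a background, were not analysed here.

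The G:U labels were checked against the stem on which the reads lay (the table leaves the GU stem empty for WT libraries, so those were not checked this way). The WT stem took 0.583% of the sense reads of G:U library 2 and 0.265% of those of G:U library 18 (309 and 162 reads). The GU stem took 0.303% and 0.182% of their antisense reads (40 and 34 reads). In both libraries the reads were thus nearly all sense on the GU stem or antisense on the WT stem, the 2 classes used below as sense and antisense siRNAs. With the same hairpin the WT stem took 0.0934% and 0.440% of the sense reads in ocp11 plants and 1.24% and 1.23% in Col-0 plants; these differences were not tested.

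The question was how the structure of the hairpin relates to the small RNAs cut from it when polymerase IV is missing. With 2 libraries against 2 an exact permutation test has 6 arrangements and cannot give a p below 0.333, so no difference between the hairpins could pass a threshold of 0.05. The 27 measures taken were the antisense share, 8 size shares and a mean length for each strand, and the antisense share within each of the 8 lengths. In 25 of them the groups did not overlap and the two-sided exact permutation p was 0.333 (Benjamini-Hochberg adjusted p = 0.360 over the 27). Differences are therefore set against the spread between libraries of the same hairpin.

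Antisense siRNAs were a minority with the G:U hairpin and slightly more than the sense siRNAs with the WT hairpin. They made up 19.99% and 23.4% of stem reads in G:U libraries 2 and 18, against 51.4% and 53.5% in WT libraries 2 and 3. The means were 21.7% ± 2.41 for G:U and 52.5% ± 1.51 for WT libraries (SD, n = 2 each), a difference of -30.8 percentage points. The gap of 28.0 points between the groups exceeded the 3.41 points by which libraries of a hairpin differed at most. Counted another way, there were 4.00 and 3.27 sense reads for each antisense read in the G:U libraries, and 0.945 and 0.868 in the WT libraries.

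**Figure D1:**
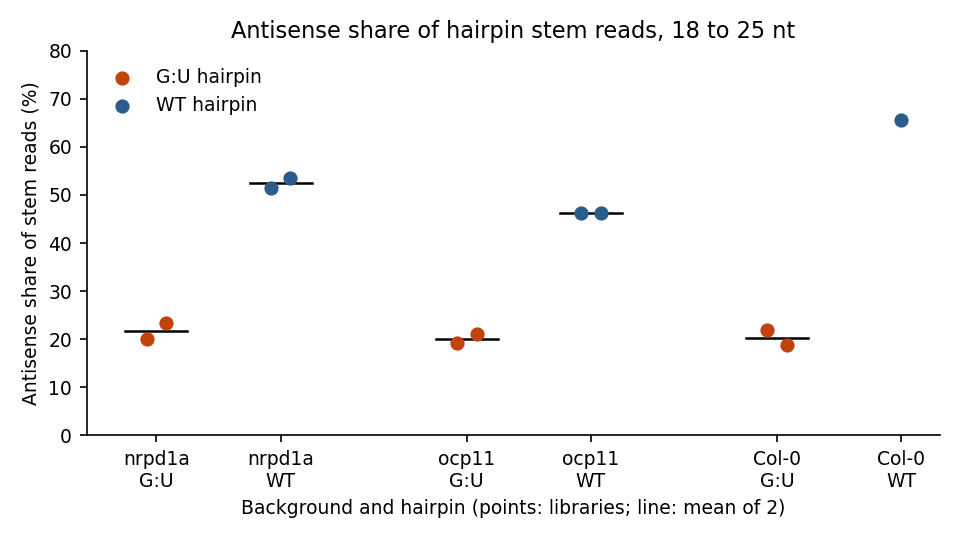
Antisense share of stem reads (y axis, %, 18 to 25 nt) for each background and hairpin (x axis). Points are libraries and lines are means of 2. In nrpd1a the G:U libraries sit at 19.99% and 23.4% and the WT libraries at 51.4% and 53.5%, and in each background the G:U libraries lie below the WT libraries.

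The size profile differed as well, and by more among antisense than among sense reads. Of the 16 strand and size classes, 15 (93.8%) had groups that did not overlap: 9 (56.2%) with both G:U libraries above both WT libraries and 6 (37.5%) below. In 13 (81.2%) the gap between the hairpins exceeded the widest range within a hairpin. Shares within a strand sum to a whole, so the classes are not independent of each other. As one value per pair of libraries, the part of the antisense reads that would have to change length to turn one profile into the other was 21.8% to 23.9% between hairpins. It was 2.82% between the G:U libraries and 0.981% between the WT libraries. For sense reads it was 9.61% to 12.0% between hairpins, 2.82% between the G:U libraries and 2.63% between the WT libraries.

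**Figure D2:**
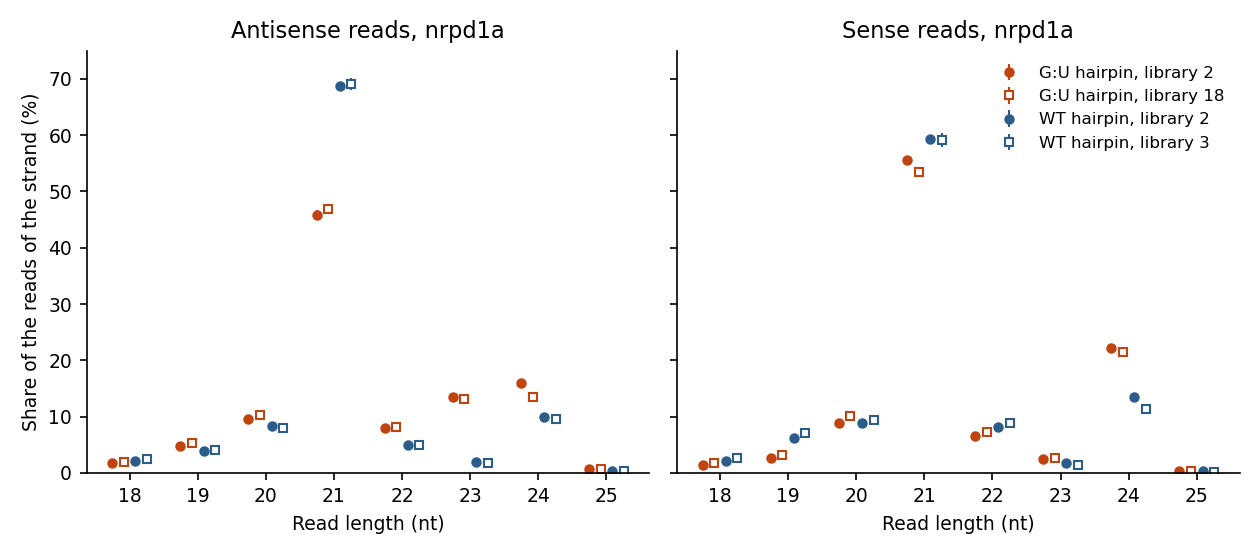
Size profile of antisense (left) and sense (right) stem reads in the 4 nrpd1a libraries: read length in nt (x axis) against the share of that strand's reads in % (y axis), with 95% Wilson intervals. The 21-nt antisense class stands at 45.9% and 46.95% in the G:U libraries and 68.7% and 69.1% in the WT libraries, while the 23-nt antisense class is at 13.4% and 13.2% in the G:U libraries and 1.96% and 1.72% in the WT libraries.

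The 21-nt class, the size made by DCL4, was the largest on both strands with both hairpins. Enzymes are named here by size alone, and which of them cut these reads was not tested. Among antisense reads it held 45.9% and 46.95% in the G:U libraries, against 68.7% and 69.1% in the WT libraries, a difference of -22.5 percentage points (46.4% ± 0.746 and 68.9% ± 0.230, SD, n = 2 each). Each hairpin's libraries lay within 1.05 points of each other. Among sense reads the 21-nt class held 55.6% and 53.5% in the G:U libraries and 59.3% and 59.2% in the WT libraries, a difference of -4.64 points. The sense difference was -7.88 points when lengths of 20 to 24 nt alone were counted. The DCL4 size thus took a smaller part of both strands with the G:U hairpin, with a larger gap on the antisense strand.

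Of the 16 strand and size classes, antisense reads of 23 nt had the largest ratio between the hairpins. They were 13.4% and 13.2% of this strand in the G:U libraries (1769 and 2449 reads), against 1.96% and 1.72% in the WT libraries (347 and 116 reads). The means were 13.3% ± 0.194 and 1.84% ± 0.164 (SD, n = 2 each), 7.23 times as large a share with the G:U hairpin. Among sense reads the 23-nt class was 2.54% and 2.60% in the G:U libraries and 1.75% and 1.35% in the WT libraries. No Dicer-like enzyme of Arabidopsis is known mainly for a 23-nt product. On the antisense strand there were 1.69 and 1.62 reads of 23 nt for each read of 22 nt in the G:U libraries, against 0.396 and 0.346 in the WT libraries, so the order of these neighbouring sizes was turned round. On the sense strand 22 nt stayed ahead with both hairpins, at 0.393 and 0.358 reads of 23 nt per read of 22 nt in the G:U libraries and 0.213 and 0.152 in the WT libraries.

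Leaving the 23-nt class out, a choice made after its values were seen, did not close the gap at 21 nt. Antisense 21-nt reads were then 53.0% and 54.1% in the G:U libraries and 70.1% and 70.3% in the WT libraries, a difference of -16.7 points.

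Reads of 24 nt, the size cut by DCL3, were present in each of the 4 nrpd1a libraries and took a larger share with the G:U hairpin on both strands. Among sense reads they were 22.1% and 21.4% in the G:U libraries, against 13.5% and 11.4% in the WT libraries (21.8% ± 0.515 and 12.5% ± 1.48, SD, n = 2 each; difference 9.30 points). Among antisense reads they were 15.9% and 13.4% in the G:U libraries and 9.92% and 9.64% in the WT libraries (14.7% ± 1.80 and 9.78% ± 0.195, SD, n = 2 each; difference 4.89 points). In both strands the G:U libraries lay above the WT libraries. The balance of DCL4 to DCL3 sizes was lower: sense reads of 21 nt outnumbered those of 24 nt by 2.51 and 2.50 to 1 in the G:U libraries and by 4.39 and 5.19 to 1 in the WT libraries. For antisense reads the ratio was 2.88 and 3.50 in the G:U libraries and 6.93 and 7.16 in the WT libraries.

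The 22-nt class, the size made by DCL2, differed in opposite directions on the 2 strands. Antisense 22-nt reads were 7.95% and 8.12% in the G:U libraries, against 4.94% and 4.98% in the WT libraries, a difference of 3.08 points beside ranges of at most 0.163 within a hairpin. Sense 22-nt reads were 6.46% and 7.25% in the G:U libraries and 8.20% and 8.89% in the WT libraries, a difference of -1.69 points.

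Among the remaining sizes, the 19-nt class also differed by strand. Its antisense share ran from 4.73% to 5.38% with the G:U hairpin, against 3.81% to 4.01% with the WT hairpin. Its sense share ran from 2.66% to 3.18% with the G:U hairpin, against 6.11% to 7.01% with the WT hairpin. Antisense 20-nt reads ranged between 9.64% and 10.3% with the G:U hairpin, above the WT range of 7.89% to 8.34%. Sense 20-nt shares, from 8.91% to 10.03% in the G:U and from 8.78% to 9.39% in the WT libraries, overlapped. The 18-nt class was below 3% and the 25-nt class below 1% of either strand in each of the 4 libraries. Mean lengths were 21.6 and 21.5 nt in antisense and 21.6 and 21.6 nt in sense reads of the G:U libraries, against 21.2 and 21.2 nt in antisense and 21.3 and 21.2 nt in sense reads of the WT libraries.

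The sense excess of the G:U hairpin was found in all lengths but 23 nt. Within 21-nt reads the antisense share was 17.1% and 21.1% in the G:U libraries, against 55.1% and 57.4% in the WT libraries. Within 24-nt reads it was 15.3% and 16.1% in the G:U libraries, against 43.7% and 49.4% in the WT libraries. Within 22-nt reads it was 23.5% and 25.5% in the G:U libraries, against 38.9% and 39.2% in the WT libraries. In 7 of 8 lengths (87.5%) both G:U libraries lay below both WT libraries. The exception was 23 nt, where antisense reads were the majority with both hairpins and the groups overlapped, at 56.9% and 60.8% in the G:U libraries and 54.2% and 59.5% in the WT libraries (exact permutation p = 0.667). The difference there was 2.00 points, and it was -0.635 without WT library 2. The narrowest gap in the other lengths was at 19 nt, where the shares were 30.8% and 34.1% in the G:U and 39.8% in both WT libraries. The 25-nt class rests on as few as 26 reads in a library, and its interval reached 17.5 points to either side.

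Set against all sense reads of a library, antisense 23-nt reads were the 1 class of 8 (12.5%) more frequent with the G:U hairpin. There were 3.36 and 4.02 of them for every 100 sense reads in the G:U libraries and 2.07 and 1.99 in the WT libraries, a ratio of means of 1.82. In the other 7 of 8 lengths (87.5%) both G:U libraries lay below both WT libraries. Antisense 21-nt reads numbered 11.5 and 14.3 per 100 sense reads in the G:U libraries and 72.8 and 79.6 in the WT libraries, a ratio of 0.169. Antisense 22-nt reads numbered 1.99 and 2.48 in the G:U libraries and 5.23 and 5.74 in the WT libraries. Antisense 24-nt reads numbered 3.98 and 4.09 in the G:U libraries and 10.5 and 11.1 in the WT libraries, a ratio of 0.374. By this scale the higher 22-nt and 24-nt shares of the antisense strand went with fewer such reads per sense read. Antisense 23-nt reads were above WT on both scales. Taken as shares of the reads of both strands, the differences were likewise -0.857 points for antisense 22-nt and -1.97 points for antisense 24-nt reads, while sense 21-nt and 22-nt reads differed by 14.6 and 1.31 points, opposite in sign to their shares of the sense strand.

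**Figure D3:**
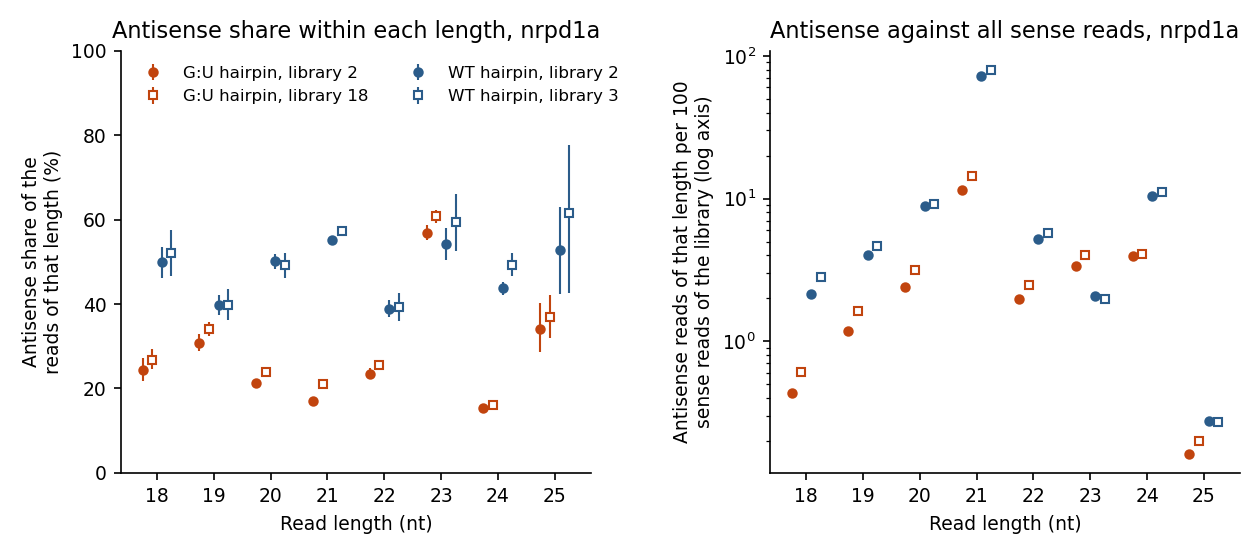
Left, antisense share of the reads of each length (y axis, %, with 95% Wilson intervals) in the 4 nrpd1a libraries. Right, antisense reads of each length per 100 sense reads of the library (y axis, log scale); the x axis of both is read length in nt. The G:U libraries lie below the WT libraries at each length except 23 nt, where the left values overlap and on the right the G:U libraries reach 3.36 and 4.02 against 2.07 and 1.99 with the WT hairpin.

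The strands of a library also differed from each other by more with the G:U hairpin. The part of reads that would have to change length to turn the sense into the antisense profile was 15.9% and 14.6% in the G:U libraries and 9.71% and 10.3% in the WT libraries.

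To see whether this pattern was particular to nrpd1a, the same difference was taken in ocp11, a mutant of AGO4, an Argonaute that binds 24-nt siRNAs (2 libraries of each hairpin), and in Col-0 (2 G:U libraries and 1 WT library), all from the same table. The difference of the differences was tested by exact permutation of the backgrounds within each hairpin, with 36 arrangements for ocp11 and 18 for Col-0. Neither can give a two-sided p below 0.0556. None of the 27 measures could therefore have an exact permutation p under 0.05, before or after adjustment. The lowest adjusted p was 0.214 against ocp11 and 0.150 against Col-0. That smallest unadjusted p was reached by 7 of the 27 measures against ocp11 and by 10 of the 27 against Col-0. The tests thus could not decide whether a measure is particular to nrpd1a, and none is called so. Of the size classes, 7 of 16 (43.8%) had no overlap between the hairpins in ocp11, 2 (12.5%) with the G:U libraries above and 5 (31.2%) with them below. In Col-0, where a single WT library makes a lack of overlap easier to reach, it was 15 of 16 (93.8%), with 10 (62.5%) above and 5 (31.2%) below.

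The antisense share was lower with the G:U hairpin in all 3 backgrounds, by 30.8 points in nrpd1a, by 26.2 in ocp11 and by 45.3 in Col-0. Taking the other background's difference from that of nrpd1a left -4.58 points for ocp11 (exact permutation p = 0.278) and 14.5 points for Col-0 (exact permutation p = 0.111). Without nrpd1a G:U library 2 the value for ocp11 was -2.88 points, and without nrpd1a G:U library 18 it was -6.29 points. The means with the G:U hairpin were close, at 21.7% in nrpd1a, 20.1% in ocp11 and 20.3% in Col-0. The WT hairpin gave 52.5% in nrpd1a, 46.3% in ocp11 and 65.6% in the Col-0 library.

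The size classes were compared in the same way. The antisense 21-nt share differed by -22.5 points in nrpd1a, by -9.67 in ocp11 and by 5.20 in Col-0 (difference from nrpd1a -12.8 and -27.7 points, exact permutation p = 0.167 and 0.111). The ocp11 groups overlapped, and the difference from ocp11 was -5.59 points without its G:U library 4 and -20.0 without its G:U library 6. For antisense 23-nt reads the G:U mean was above WT in all 3, by 11.5 points in nrpd1a, 12.6 in ocp11 and 1.87 in Col-0. Against ocp11 the difference was -1.12 points (exact permutation p = 1), but the ocp11 G:U libraries 4 and 6 had 8.54% and 25.4%. The difference was 7.32 points without ocp11 G:U library 6 and -9.55 points without ocp11 G:U library 4. Against Col-0 it was 9.59 points (exact permutation p = 0.0556, the smallest possible, adjusted p = 0.150). In Col-0 the 23-nt class was 10.4% and 10.9% of antisense reads in the G:U libraries and 8.80% in the WT library.

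The 24-nt class did not differ in one direction throughout. Its antisense share differed by 4.89 points in nrpd1a, by 1.87 in ocp11 (where the groups overlapped) and by -14.0 in Col-0, where the WT library had 25.6%. The difference between nrpd1a and Col-0 was 18.9 points (exact permutation p = 0.0556, the smallest possible, adjusted p = 0.150). Its sense share differed by 9.30 points in nrpd1a, -1.45 in ocp11 and 6.997 in Col-0 (difference from nrpd1a 10.8 and 2.31 points, exact permutation p = 0.167 and 0.889). The ocp11 groups overlapped, and the difference from ocp11 was 6.59 points without its G:U library 4 and 6.401 without its WT library 11. It was 14.9 points without ocp11 G:U library 6 and 15.1 without ocp11 WT library 10. The difference from Col-0 was 1.01 points without Col-0 G:U library 13, 3.601 without Col-0 G:U library 12 and 1.26 without nrpd1a WT library 3.

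Within 23-nt reads the hairpins overlapped in antisense share in ocp11 as they did in nrpd1a, with 45.9% ± 16.0 for G:U and 46.0% ± 1.13 for WT libraries of ocp11 (SD, n = 2 each). The difference of differences was 2.12 points (exact permutation p = 0.944), and it ran from -9.21 without ocp11 G:U library 4 to 13.5 without ocp11 G:U library 6. In Col-0 this share was 35.8% ± 3.41 for G:U libraries (SD, n = 2) and 78.1% in the WT library. That difference of differences was 44.3 points (exact permutation p = 0.0556, the smallest possible, adjusted p = 0.150).

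**Figure D4:**
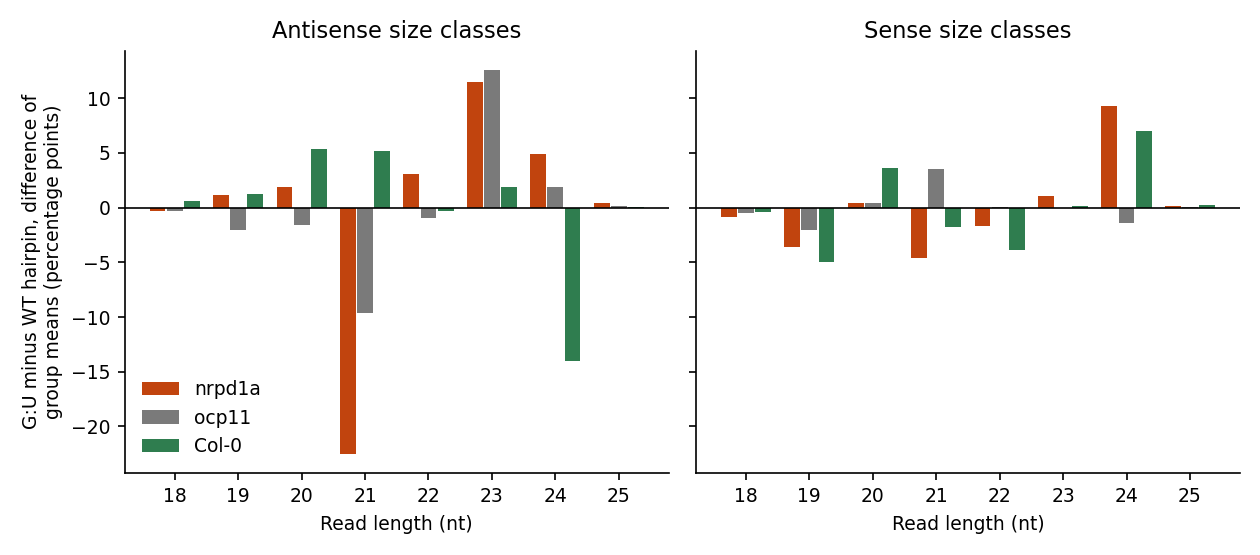
Difference between hairpins, G:U minus WT, in the share of each antisense (left) and sense (right) size class, in percentage points (y axis), by read length in nt (x axis) in nrpd1a, ocp11 and Col-0. Bars are differences of group means over 2 libraries a group, except 1 WT library in Col-0. At 21 nt antisense the bars stand at -22.5, -9.67 and 5.20, and at 23 nt at 11.5, 12.6 and 1.87.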

How the data were processed

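Small RNA libraries of nrpd1a plants with the hpEIN2[G:U] or hpEIN2[WT] transgene were analysed from a deposited table of raw read counts per library, stem, strand and length (18 to 25 nt), a layout known per the file headers. TAIR10 is the build, and cutadapt and Bowtie 1.0 the tools, named in the submitters' processing notes. How many mismatches were allowed, and how reads matching both stems were treated, is not given in the sources used here. Gene names came from RefSeq (TAIR10.1).

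The 4 entries of a library, headed replicate, were summed and counted as 1 sample. Over classes of at least 20 reads no difference between the entries of a library was detected (chi-square tests of read counts, lowest unadjusted p = 0.179, adjusted 0.372, in 4 libraries). Libraries of a hairpin are not copies: chi-square tests of the size profiles gave p of 1.57e-08 (antisense) and 2.60e-26 (sense) for G:U, and 0.371 and 2.46e-05 for WT. The labels do not say that libraries came from separate plants, so p-values measure the spread between libraries. The library numbered 13 in the table was taken as the one titled 3, since no other row fits that title.

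Sense reads were taken from the stem the hairpin carries, antisense reads from the WT stem. Shares were computed over 18 to 25 nt and compared by exact two-sided permutation tests, with Benjamini-Hochberg adjustment over 27 measures (Python 3.11.15, NumPy 2.4.6, SciPy 1.17.1; figures with Matplotlib 3.10.9). The permutation test of 2 libraries against 2 was checked on simulated libraries, for the antisense share only. For the difference of differences only the number of arrangements was checked. Alternatives were lengths of 20 to 24 nt, both stems summed, pooled reads, shares of both strands, single run entries and single libraries left out, and, added after seeing the data, the 23-nt class left out. The tables hold no genes. By rule every length is described, with values per library for 21 to 24 nt. Members, measures and tests were chosen with earlier results of these data known. The first table, which holds no nrpd1a library, was not used here.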

Additional observations from a re-analysis of the deposited data

Results flagged for a closer look

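The hairpins stood in opposite order in 6 of the 54 differences between backgrounds (27 measures against each of ocp11 and Col-0). In these, all G:U libraries of nrpd1a lay on one side of the WT libraries. All G:U libraries of the other background lay on the opposite side of its WT hairpin. Against ocp11 these were the antisense 19-nt and 22-nt shares. The 22-nt share was higher by 3.08 percentage points with the G:U hairpin in nrpd1a and differed by -0.966 points in ocp11, a difference of 4.04. In ocp11 this order was narrow. G:U libraries 4 and 6 had 6.33% and 4.62%, against 6.43% and 6.45% in WT libraries 10 and 11. The Wilson intervals of ocp11 G:U library 4 (6.18% to 6.48%) and WT library 10 (6.30% to 6.57%) overlapped. The 19-nt share differed by 1.14 points in nrpd1a and by -2.02 in ocp11, a difference of 3.16. Both had p = 0.0556, the smallest that the exact permutation test can give, and adjusted p = 0.214.

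Against Col-0, which has 1 WT library, they were the antisense 18-nt, 21-nt and 24-nt shares and the antisense mean length. The 18-nt order was nearly a tie in nrpd1a, at 1.747% and 2.005% in the G:U libraries and 2.024% and 2.437% in the WT libraries. That gap of 0.0187 points was smaller than the range of up to 0.414 points within a hairpin. The differences from Col-0 were -0.951 percentage points (18 nt, exact permutation p = 0.5), -27.7 (21 nt, exact permutation p = 0.111) and 18.9 (24 nt, exact permutation p = 0.0556, adjusted p = 0.150). The antisense mean length was 0.392 nt longer with the G:U hairpin in nrpd1a, while in Col-0 it differed by -0.481 nt, a difference of 0.874 nt (exact permutation p = 0.0556, adjusted p = 0.150). The part of the single Col-0 WT library in these was not tested.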

How the results depend on the processing

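Of the 27 measures of the 2 hairpins in nrpd1a, 18 kept their direction under all alternatives run. The antisense share and the 23-nt antisense share were among them. As shares of both strands, which takes in the difference in antisense share, the differences turned to -0.953 (antisense 19 nt), -2.08 (20 nt), -0.857 (22 nt) and -1.97 (24 nt) percentage points, and to 0.0595 (sense 18 nt), 14.6 (21 nt) and 1.31 (22 nt). The sense 20-nt difference was -0.0553 over 20 to 24 nt. With single libraries left out it ran from -0.173 to 0.942, the antisense share within 23 nt from -0.635 to 4.63, and the nrpd1a minus ocp11 difference of the antisense 23-nt share from -9.55 to 7.32. Over 20 to 24 nt the groups did not overlap in 9 of the 10 classes then counted. The antisense share difference ran from -32.5 to -29.1 with single libraries left out. Of the 54 differences between backgrounds, alternatives were run for 23, among them all that are printed, and 21 of these kept their direction. The other exception was the nrpd1a minus ocp11 difference of the antisense share within 23 nt, from -9.21 to 13.5 with single libraries left out (-0.511 without nrpd1a WT library 2). No paired analysis was possible because the nrpd1a groups share 1 library number. Depth limits the 25-nt class most, with as few as 26 reads in a library.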
